A study of Mus musculus with 16 samples.

Results

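Among 16 RNA sequencing libraries of mouse endothelial cells, the 8 labelled Erg and Fli1 double knockout were taken and compared by organ: 3 from liver, 3 from lung and 2 from heart. All cells came from animals given tamoxifen to induce gene deletion and were collected 10 days later. The other 8 libraries, labelled Wild Type and collected on the same day after the same drug, served as the controls (liver 3, lung 3, heart 2). The sources used here do not give the Cre driver, the alleles, the strain or the age of the animals. A VE-cadherin antibody was injected into the living mouse, the organs were digested, and living cells with CD31 and VE-cadherin but no CD45, a leukocyte protein, were sorted. Nothing in the labels says that libraries of one group came from separate animals, so p-values measure the spread between these libraries, which may be partly technical. The comparison asked which organ differences remain among the knockout-labelled endothelial cells.

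Endothelial cells line every blood vessel but differ between organs. Liver sinusoidal cells are fenestrated scavenger cells built around the transcription factors Gata4 and Maf, lung capillary cells are shaped for gas exchange and carry Foxf1, and heart capillary cells take up fatty acids under Meox2 and Tcf15. Erg and Fli1 are ETS family transcription factors that bind GGAA sites and are active in endothelium of all organs. Their loss is studied as a loss of shared endothelial identity, which makes the organ-specific layer a separate question.

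Counts per knockout-labelled library totalled 30226340 to 41132076. Levels below are CPM, which relate each count to its library's TMM-normalised total, and are given in the order of the library numbers. A tissue difference is a log2 difference with its standard error (SE) and an adjusted p from edgeR's quasi-likelihood test across 19646 genes, and a difference passes at 0.05. The sorted identity was visible in every library: Cdh5, which encodes VE-cadherin, had 2230.2, 1757 and 1603 CPM in liver, 3037, 3337 and 2325 in lung and 1920.4 and 2234 in heart, and Pecam1, which encodes CD31, had 1402, 1050.5 and 1452, 2089, 1679 and 1391 and 1773 and 2118 CPM. Library 2 of each organ was male by its Y-linked transcripts and the others female, so each organ held more than 1 animal. Among controls, library 2 of liver and of lung was male, while both heart libraries were female (Xist 949.4 and 701.4 CPM). Knockout-labelled and control heart libraries are therefore not balanced for sex.

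Markers of other cell types were present and differed by organ. Hepatocyte markers summed to 745 to 1175 CPM in liver, 4.61 to 48.6 in lung and 73.4 to 75.7 in heart, where nearly all of the sum was Ahsg. The heart libraries held no count of Apoa2, Serpina1a, Apoc3 or Cyp3a11. The lung libraries held none of Serpina1a or Cps1. Lung epithelial markers, all 13 of which were detected in both lung and heart, summed to 364 to 596 CPM in lung, 103 to 167 in heart and 10.5 to 19.3 in liver, where Scgb3a2, Nkx2-1 and Cldn18 had no count. In heart controls that sum was 6.56 to 8.48 CPM. The 16 fibroblast and mural markers summed to 2188 to 2543 CPM in heart, 577 to 1023 in lung and 47.5 to 225 in liver. The 11 macrophage and Kupffer cell markers summed to 201 to 504 CPM in liver, 129 to 225 in heart and 8.06 to 54.5 in lung. Cardiomyocyte markers came to 163 to 188 CPM in heart, with Tnnt2 as the largest, 26.5 to 163 in lung and 3.29 to 9.19 in liver, where Myh6, Actc1, Myl2 and Myl3 were at 0. In bulk samples a level moves both with the number of cells of a type and with the RNA per cell, and these cannot be told apart. The part of these other cells in the results below was not tested unless a value is given.

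Erg and Fli1 themselves were read first. Erg (chromosome 16, 95359169 to 95586593, minus strand, GRCm38) had 165, 136 and 131 CPM in the knockout-labelled liver libraries, 224, 166 and 164 in lung and 158 and 155 in heart. Controls had 361, 337 and 371, 263, 259 and 276 and 204 and 229 CPM. No pair of organs passed for Erg (adjusted p = 0.118, 0.67 and 0.372 for lung against liver, heart against liver and heart against lung). Fli1 (chromosome 9, 32422204 to 32542861, minus strand) had 144, 125 and 187 CPM in liver, 136, 98.2 and 138 in lung and 207 and 232 in heart. Heart was above lung in every library (heart minus lung log2 0.81, SE 0.219, adjusted p = 0.0305), and the other pairs did not pass. Control levels of Fli1 were 123, 113 and 114, 76.6, 77.9 and 76.6 and 198 and 236 CPM, so whole-gene counts of Fli1 were not lower in the knockout-labelled libraries than in controls, and the libraries are named by their label throughout. Which exons were deleted is not stated, and reads from the rest of either gene count in full.

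The 8 libraries separated by organ. On the first principal component, with 56.5% of the variance, liver lay at −109.9, −108.6 and −79.54, heart at 36.02 and 35.55, and lung at 76.83, 76.54 and 73.1. The second component, with 29%, set heart apart at −97.84 and −88.98. Across all genes, each knockout-labelled library correlated with controls of its own organ at 0.949 to 0.974 in liver, 0.974 to 0.979 in lung and 0.955 to 0.966 in heart. With controls of the other organs the correlations were 0.872 to 0.906, 0.872 to 0.926 and 0.864 to 0.919, so none came as close to another organ as to its own. Liver library 3 stood apart. It correlated at 0.974 and 0.979 with the other liver libraries, which correlated at 0.989, and at 0.903 to 0.923 with lung and heart libraries, against 0.888 to 0.9 for liver 1 and 2. Counts over all genes, the organ genes and the organ marker lists are given with and without it.

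**Figure D1:**
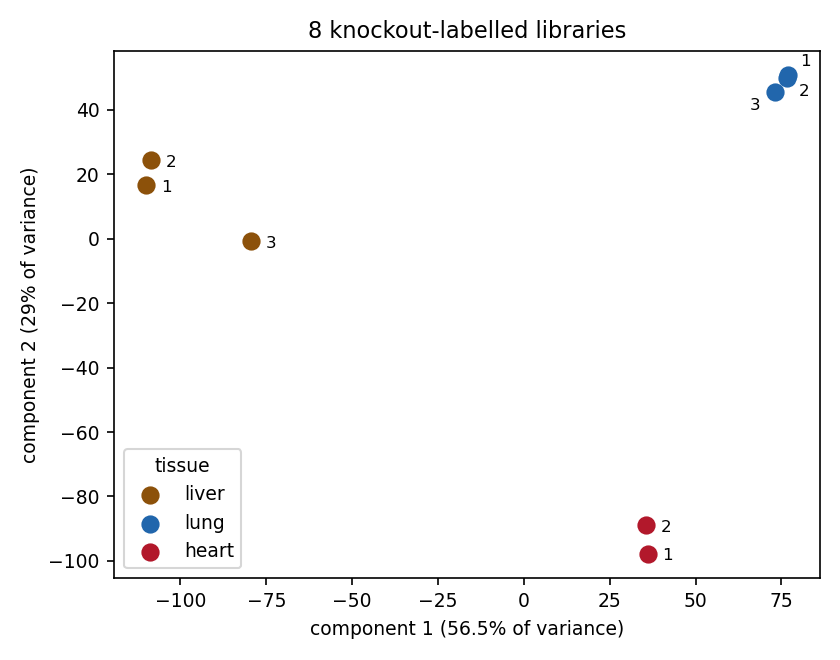
Principal components of the 8 knockout-labelled libraries over all tested genes (axes: component scores, with the share of variance; points: single libraries with their number; colours: organ). The organs form 3 separate groups, and liver 3 lies at −79.54 on the first axis, nearer to heart and lung than liver 1 and 2.

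Lung against liver compared an alveolar with a sinusoidal endothelium. Of 19646 genes tested, 6234 differed (31.7%), 3241 higher in lung (16.5%) and 2993 higher in liver (15.2%), and 3123 of them by at least 4-fold. Heart against liver gave 5559 genes (28.3%), 2796 higher in heart (14.2%) and 2763 higher in liver (14.1%), 2769 by at least 4-fold. Heart against lung gave 4256 genes (21.7%), 2144 higher in heart (10.9%) and 2112 higher in lung (10.8%), 2218 by at least 4-fold. By the 3-tissue test 8221 genes differed (41.8%). The same fit of the control libraries called 10100, 10187 and 7025 genes for the pairs (51.4%, 51.9% and 35.8%) and 12657 for the 3-tissue test (64.4%). Such counts also depend on the spread between libraries. The median absolute log2 difference over all genes was 0.59, 0.621 and 0.55 in the knockout-labelled libraries and 0.675, 0.771 and 0.519 in controls. For heart against lung it was thus not smaller than in controls. In controls 26.3% of genes were higher in lung than in liver and 25.1% lower, 24.6% higher in heart than in liver and 27.3% lower, and 15.7% higher in heart than in lung and 20% lower. Without liver 3 the pair counts were 6513, 5772 and 4973. Heart had only 2 libraries, and without heart 1 the heart counts fell to 2933 against liver and 1766 against lung, and without heart 2 the count against lung was 2719.

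Knockout-labelled and control libraries share no sample, so their organ differences could be set side by side. Across genes, which are not independent replicates, the log2 differences of the 2 sets correlated at 0.843 for lung against liver, 0.764 for heart against liver and 0.675 for heart against lung. Of the 4273 genes that differed by at least 4-fold between control lung and liver, 4051 (94.8%) pointed the same way in the knockout-labelled libraries. For heart against liver the share was 3649 of 3957 (92.2%) and for heart against lung 2475 of 2700 (91.7%). The median of the ratio of both log2 differences over these genes was 0.748, 0.678 and 0.68, a description of genes that the controls had chosen. The change in the organ difference itself was tested as knockout-labelled minus control in 1 fit of all 16 libraries. It passed for 1219 genes for lung and liver (6.2%; 3.13% upwards and 3.08% downwards), 1635 for heart and liver (8.32%; 4.62% and 3.7%) and 1257 for heart and lung (6.4%; 3.83% and 2.57%). Counts for heart and lung were 476 without heart 1, 496 and 543 without heart controls 1 and 2, and 764 and 801 without lung controls 3 and 1. Counts for heart and liver were 736 and 936 without heart controls 1 and 2 and 1016 without heart 1, and the count for lung and liver was 804 without lung control 3. Without liver 3 the counts were 1197 for lung and liver and 1744 for heart and liver.

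Organ genes were defined in the control libraries alone, as genes at least 4-fold and significantly above both other organs with a mean of at least 10 CPM: 454 for liver (2.31% of all genes), 348 for lung (1.77%) and 261 for heart (1.33%). An organ gene was called kept where it was also significantly above both other organs among the knockout-labelled libraries. Liver kept 373 (82.2%), lung 269 (77.3%) and heart 171 (65.5%). Over all genes tested, 1655 (8.42%), 1217 (6.19%) and 1028 (5.23%) were above both other organs in liver, lung and heart. This share was not counted in controls, where more genes were called in every pair. Control counts of list members below therefore have no share of all genes beside them, and a lower count than in controls is not particular to a list. Kept with at least 4-fold were 287, 227 and 147 genes, or 63.2%, 65.2% and 56.3%, where 3.54%, 3.61% and 2.95% of all genes were 4-fold above both. Of the 81, 79 and 90 genes that did not pass, 62, 62 and 75 were above both others by estimate and 19, 17 and 14 lay below one of them, and 1 heart gene was level. Every library of the organ was above every other knockout-labelled library for 392 liver genes (86.3%), 304 lung genes (87.4%) and 227 heart genes (87.0%), where 15.4%, 12.8% and 14.6% of all genes did so. Leaving out liver 3 gave 412, 308 and 233 such genes (90.7%, 88.5% and 89.3%, with 20.2%, 14.1% and 15.7% of all genes), and the kept share became 82.4%, 85.3% and 78.5%. The kept share of heart was 38.3% without heart 1 and 37.9% without heart 2. Whether the organs differ from each other in the share kept was not tested.

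The distance to the nearer of the other organs shrank from a median log2 of 3.42 in control liver to 2.65 in the knockout-labelled libraries, from 3.78 to 2.76 for lung genes and from 3.15 to 2.65 for heart genes. Medians over all genes were −0.26, −0.28 and −0.31 in the knockout-labelled libraries. Control values come from the libraries that chose the genes. With genes at 0 counts in another organ (32, 13 and 8) set at the bound of 3 counts, the knockout-labelled medians were 2.65, 2.76 and 2.61. The median level of the 454 liver genes was 40.88, 37.24 and 32.78 CPM in the liver libraries, against 2.41 to 3.23 in lung and 5.04 to 5.21 in heart. Liver controls had 52.47, 54.23 and 70.64 CPM. The 348 lung genes had medians of 33.21, 31.36 and 25.65 CPM in lung, 1.12 to 2.01 in liver and 3.03 to 3.24 in heart, and 38.67, 43.67 and 43.96 in lung controls. For the 261 heart genes the medians were 24.88 and 25.95 CPM in heart against 39.76 and 38.8 in heart controls. In every case the organ's own knockout-labelled libraries lay below its controls and above the other organs. Liver 3 had a median of 3.61 CPM of the heart genes, where liver 1 and 2 had 1.06 and 0.99, and it was the highest of the 3 liver libraries for 75.9% of heart genes, 55.5% of lung genes, 22.9% of liver genes and 34.9% of all genes.

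**Figure D2:**
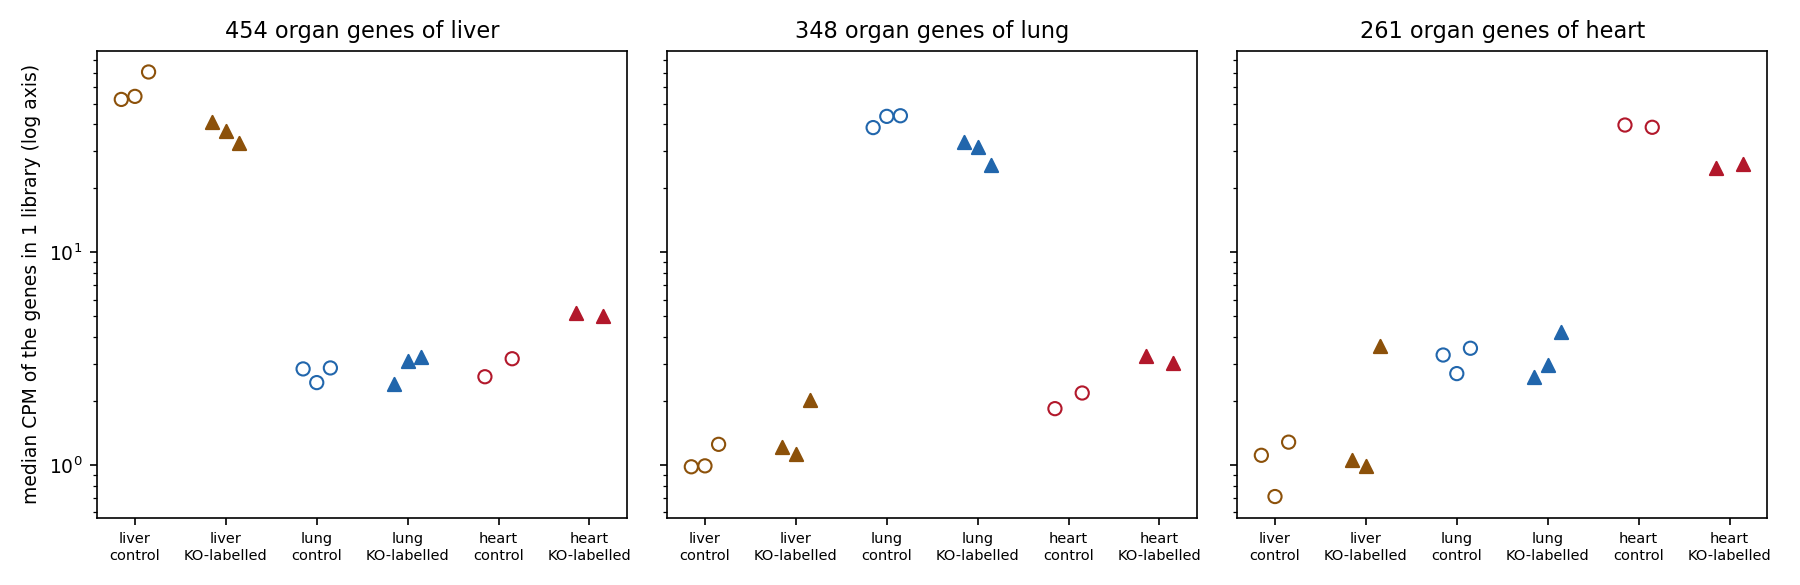
Median CPM of each organ's control-defined genes in all 16 libraries (y axis logarithmic; x axis: 6 groups; open circles: control libraries; triangles: knockout-labelled libraries, in the order of their numbers). The organ's own knockout-labelled triangles sit just under its control circles, for instance at 24.88 and 25.95 CPM for the heart genes, and above all libraries of the other organs.

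**Figure D3:**
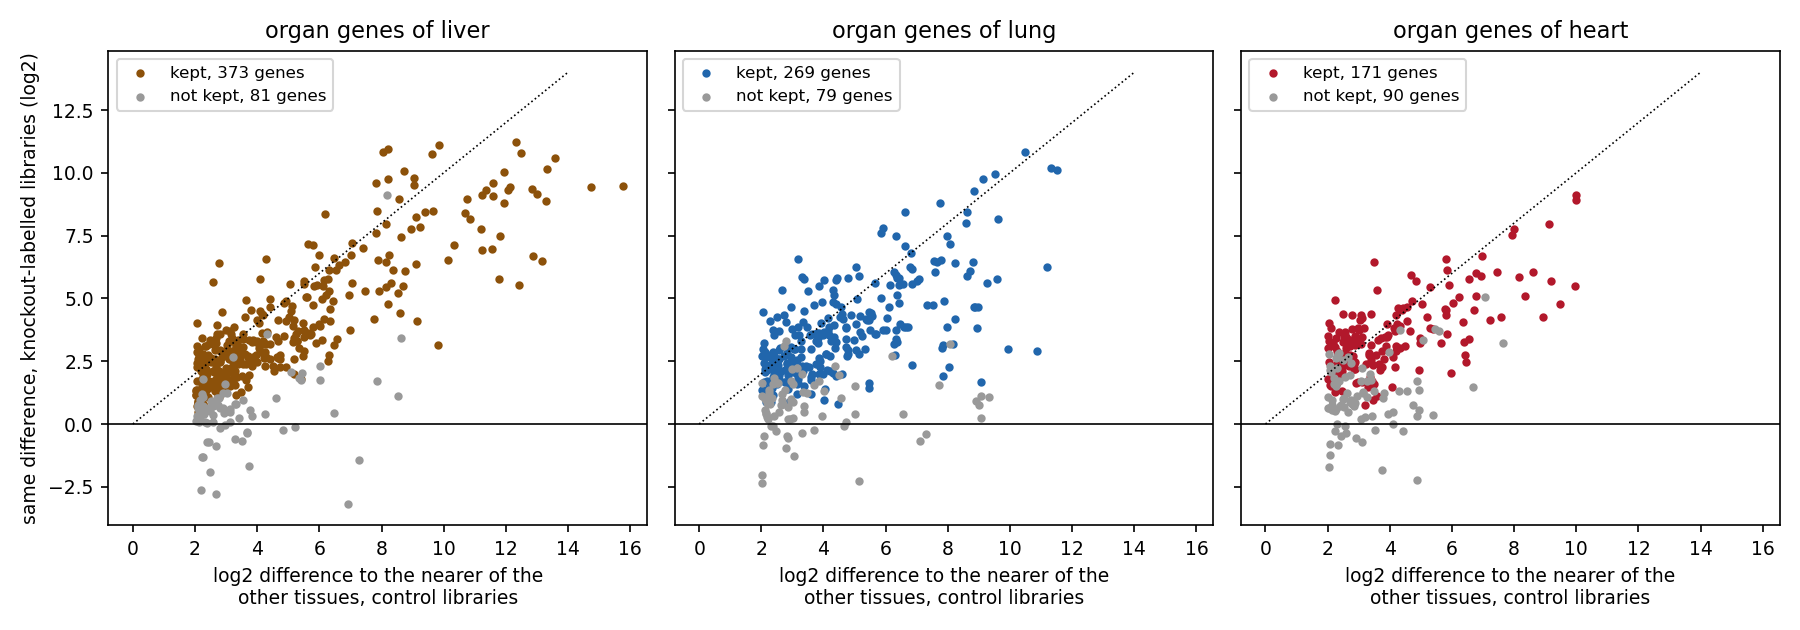
Log2 difference of every organ gene to the nearer of the other organs in control libraries (x axis) and in knockout-labelled libraries (y axis), 1 point per gene, with the line of equality dotted and 0 drawn solid. Coloured points are the 373, 269 and 171 kept genes, and most grey points lie above 0 but did not pass.

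Liver sinusoidal markers mostly stayed with liver. Of 28 sinusoidal genes tested, 27 passed the 3-tissue test (41.8% of all genes did) and 23 were above both other organs (8.42% of all genes), where 26 were in controls. The count was also 23 without liver 3. The median log2 difference to the nearer organ was 4.96 (controls 6.26). Among scavenger receptors, Stab2, the hyaluronan receptor of sinusoids (chromosome 10, 86841198 to 87008025, minus strand), had 5048, 4911 and 3664 CPM in liver, 0.388, 4.17 and 4.29 in lung and 0.245 and 0.23 in heart (lung minus liver log2 −10.59, SE 0.903, adjusted p = 5.33e-05). Liver controls had 4921, 4833 and 4470.0 CPM, so liver 1 and 2 reached the control level and liver 3 did not. Stab1, its relative, had 3523, 2809 and 2203 CPM in liver against 280.3, 130.3 and 162 in lung and 174 and 159 in heart (heart minus liver log2 −4.09, adjusted p = 0.000256). The mannose receptor Mrc1 had 2300.1, 2257 and 2108 CPM in liver, 6.55, 26 and 8.09 in lung and 32.4 and 67 in heart (heart minus liver log2 −5.48, adjusted p = 0.000742), and the Fc receptor Fcgr2b 2397, 2398 and 1565, 0.728, 5.74 and 3.68 and 17.3 and 17.5 CPM (heart minus liver log2 −6.92, adjusted p = 0.000504). Liver stood above both organs in every library for all 4 receptors. The lectin gene Clec4g, at 588, 165 and 72.4 CPM in liver, was still above lung (0.121, 2.18 and 1.59) and heart (0.147 and 0.0768) in every library, though liver controls had 3539, 3371 and 3628 CPM. Of 20 scavenger and endocytic receptors, 11 were above both other organs in liver (controls 13; 8.42% of all genes), 1 in lung (controls 1; 6.19%) and 1 in heart (controls 2; 5.23%), where the lung and heart counts are near the share of all genes. The gene in heart was Lrp1 at 291 and 303 CPM against 40.8, 51 and 43.2 in liver and 62.2, 89 and 118 in lung (heart minus lung log2 1.72, adjusted p = 0.00167), and the gene in lung was Lyve1.

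Several signals that sinusoids send to hepatocytes were above both other organs in liver. Bmp2, which instructs hepatocytes to make hepcidin, had 1129.7, 1084 and 1022 CPM in liver, 6.67, 4.05 and 5.76 in lung and 32.6 and 22.6 in heart (heart minus liver log2 −5.28, SE 0.314, adjusted p = 3.9e-05). All liver libraries were above all others, and the gap to heart was smaller than in controls (knockout-labelled minus control log2 2.60, adjusted p = 0.000226). Rspo3 and Wnt2, signals of liver zonation, had 39.1, 29.7 and 39.8 and 83.1, 122 and 31.1 CPM in liver. In lung they had 1.21, 1.07 and 0.97 and 0.582, 1.04 and 1.06, and in heart 0.489 and 0.256 and 0.685 and 0.717 CPM (lung minus liver log2 −5.04 and −6.45, adjusted p = 7.46e-06 and 4.92e-05). The coagulation factor gene F8 had 1490.1, 1634 and 1054 CPM in liver, 6.58, 7.09 and 9.82 in lung and 4.77 and 9.21 in heart (lung minus liver log2 −7.46, adjusted p = 5.49e-06). Oit3, a secreted sinusoidal protein, had 2362, 2102 and 1352 CPM in liver, 0.679, 2.33 and 2.15 in lung and 1.39 and 1.54 in heart (lung minus liver log2 −10.14, SE 0.557, adjusted p = 7.96e-06), and both differences were smaller than in controls (adjusted p = 0.00289 and 0.0123). Controls of lung had 0.242, 0.305 and 0.195 CPM and of heart 0.174 and 0.388, below the knockout-labelled levels there.

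Some of the kept liver genes with the largest differences encode proteins made by hepatocytes. Hrg, a plasma glycoprotein, had 8.44, 4.21 and 6.64 CPM in liver and 0 in all lung and heart libraries. That is at least 228-fold above lung and at least 169-fold above heart, with 3 counts over the group as the bound. Cyp2c50 had 6.09, 2.64 and 2.39 CPM and 0 elsewhere (at least 132-fold and 97.7-fold). Gc, the vitamin D-binding protein, had 33.8, 24.9 and 44.4 CPM against 3 counts over the lung libraries and 2 over the heart libraries (ratio 1220, 95% counting interval 418 to 5930, and 1360, interval 376 to 11200). Beside them, 13 of 15 hepatocyte markers were above both organs in liver (8.42% of all genes were), led by Alb, with none at 0 there and a sum of 745 to 1175 CPM (917 to 3254 in controls). Their part in these genes was not tested. Without the 22 liver organ genes that are on the other-cell lists the kept share of liver was 82.9%. Hrg, Cyp2c50 and Gc are not on those lists and stayed in, so this share does not bear on the part of hepatocytes.

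Not kept in liver were 81 organ genes, 48 of which had a liver mean at least 2-fold below that of controls and 38 of which had a level in the other organs at least 2-fold above that of their controls, as means with no test. Selenop, which encodes a secreted selenium carrier, had 7125, 8098 and 5861 CPM in liver, 4078, 3652 and 2883 in lung and 183 and 426 in heart. Liver was above every other library, but the difference to lung did not pass (lung minus liver log2 −0.97, SE 0.336, adjusted p = 0.0553). Liver controls had 18156, 20020.0 and 22896 and lung controls 1427, 1950.3 and 1851 CPM, and the gap had narrowed (knockout-labelled minus control log2 2.56, adjusted p = 0.00252). Il6st, the shared receptor subunit of interleukin 6 cytokines, had 2696, 2886 and 2351 CPM in liver and 1662, 1198 and 2144 in lung (lung minus liver log2 −0.65, adjusted p = 0.077). Ntn4, a netrin of basement membranes, had 149.9, 84.6 and 294 CPM in liver, 106, 124 and 87.3 in lung and 46.7 and 33.7 in heart, so liver 2 lay below the lung libraries (lung minus liver log2 −0.73, adjusted p = 0.195). Fxyd6, a sodium pump regulator, had 54.2, 39.5 and 58.6 CPM in liver and 45.1 and 46.3 in heart (heart minus liver log2 −0.15, SE 0.42, adjusted p = 0.83), where controls had 145, 157 and 181 and 38.5 and 41.3, a smaller margin, as it was against lung (knockout-labelled minus control log2 1.86, adjusted p = 0.0247). Inhbb, an activin subunit, had 114, 5.19 and 32.2 CPM in liver, 80.1, 11.4 and 49.5 in lung and 69 and 21.9 in heart, and the libraries of the 3 organs overlapped. The tetraspanin Cd82 had 134, 104 and 121 CPM in liver and 73.2 and 66.9 in heart (heart minus liver log2 −0.77, adjusted p = 0.0609). Some of these calls turned with 1 library: Selenop passed without liver 3 (adjusted p = 0.0394), heart 1 (0.0343) or heart 2 (0.0357), Il6st without lung 3 (0.0311), Cd82 without lung 2 (0.0404) or lung 3 (0.0111), and Ntn4 without liver 2 (0.0317). DESeq2 called Selenop, Il6st and Cd82 (adjusted p = 0.00767, 0.0233 and 0.0433).

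A pair of genes on the sinusoidal list were higher in lung than in liver. Lyve1, a hyaluronan receptor, had 307, 42.8 and 256 CPM in liver, 2402, 615 and 1209.5 in lung and 91.4 and 66.2 in heart, and every lung library was above every liver library (lung minus liver log2 2.82, SE 0.724, adjusted p = 0.0168). Control liver had 769, 688 and 1024 and control lung 976, 1429 and 1146 CPM. Kit, a receptor tyrosine kinase, had 219.8, 67.1 and 124 CPM in liver, 589, 376 and 419 in lung and 296 and 179 in heart (lung minus liver log2 1.77, SE 0.413, adjusted p = 0.0109). In controls Kit had 662, 945 and 727 CPM in liver, 869, 818 and 869.7 in lung and 63.3 and 48.9 in heart, and the heart minus liver difference had changed (knockout-labelled minus control log2 4.59, adjusted p = 0.00035). The change of the lung minus liver difference passed for neither (adjusted p = 0.172 and 0.0602).

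By the same thresholds, 305 genes (1.55% of all) were liver organ genes in the knockout-labelled libraries. Of these, 73 were not on the control list, 16 of them at least 4-fold above both organs in controls by estimate but under 10 CPM there, and 232 were shared with the controls' 454. That is 51.1% of the control list and 76.1% of the other. Hgf, hepatocyte growth factor (chromosome 5, 16553495 to 16620152, plus strand), had 731, 553 and 782 CPM in liver, 9.83, 3.1 and 7.91 in lung and 3.67 and 1.46 in heart (lung minus liver log2 −6.61, SE 0.54, adjusted p = 4.48e-05). Controls had 130.1, 93 and 96.8 CPM in liver and 33.3, 31 and 32.1 in lung, so the lung minus liver difference had grown (knockout-labelled minus control log2 −4.89, adjusted p = 0.000117). The liver minus heart difference of Hgf was not shown to change (knockout-labelled minus control log2 0.93, adjusted p = 0.434). Ctsj, a cathepsin best known from placenta, had 30.04, 47.4 and 40.3 CPM in liver and 0 in every lung and heart library, at least 1420-fold and 1050-fold above them, and 0.0527, 0.0681 and 0.213 CPM in liver controls. Cnmd, chondromodulin, had 186, 106 and 268 CPM in liver against 0, 0.307 and 0.0882 and 0.416 and 1.1 (heart minus liver log2 −7.94, adjusted p = 0.000232), and 4.14, 5.17 and 6.53 in liver controls. The atypical cadherin Fat3 had 63.6, 39.6 and 19.2 CPM in liver, 0, 0.153 and 0.0294 in lung and 0.122 and 0.896 in heart (heart minus liver log2 −6.32, SE 0.954, adjusted p = 0.00164), and liver controls had 0.0527, 0.374 and 0 CPM, so its organ difference was larger than in controls, also against lung (knockout-labelled minus control log2 −8.50, adjusted p = 0.00201). Trim71, an RNA-binding ubiquitin ligase gene, had 24.2, 15.8 and 24.6 CPM in liver, 0.0243, 0.0921 and 0 in lung and 0.612 and 0.128 in heart. Smim9 had 11.5, 15 and 7.4 CPM in liver, 0.0243, 0 and 0.0294 in lung and 0.0734 and 0.0512 in heart. Liver controls had 3, 1.67 and 1.4 CPM of Trim71 and 9.65, 9.4 and 7.9 of Smim9, below the 10 CPM minimum. For Ctsj, Cnmd, Trim71 and Smim9 the change of the organ difference from controls did not pass against both organs. The larger of the 2 adjusted p was 0.0915 for Cnmd, 0.4 for Trim71 and 0.88 for Smim9. Ctsj had no count in the knockout-labelled lung and heart libraries, so this test could not decide for it, and its adjusted p is not given.

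Of 22 lung capillary marker genes, 14 were above both other organs in lung (controls 15; 6.19% of all genes), or 17 without liver 3, and 19 passed the 3-tissue test (41.8% of all genes). The median log2 difference to the nearer organ was 3.02 (controls 2.42). Foxf1, the forkhead factor of lung endothelium (chromosome 8, 121084386 to 121088144, plus strand), had 1596, 1921 and 1534 CPM in lung against 4.16, 3.19 and 7.18 in liver and 3.52 and 5.32 in heart (lung minus liver log2 8.45, SE 0.408, adjusted p = 4.88e-06). Lung controls had 1664, 1795 and 1362 CPM, a level that overlapped the knockout-labelled one. Fendrr, a noncoding RNA next to Foxf1 on the opposite strand (chromosome 8, 121054882 to 121083110, minus strand), had 1551, 1204 and 1241 CPM in lung, 0.709, 0.638 and 1.21 in liver and 1.49 and 1.2 in heart (heart minus lung log2 −9.96, SE 0.412, adjusted p = 1.52e-05). Whether counting used strand is not stated. The periaxin gene Prx had 888, 1106 and 870.4 CPM in lung, 7.25, 7.42 and 6.89 in liver and 20.6 and 21.2 in heart (lung minus liver log2 7.07, adjusted p = 9.7e-07), and Tmem100, a BMP-signal gene, 1515, 1725 and 1304, 0.516, 0.725 and 2.84 and 24.1 and 31.2 CPM (heart minus lung log2 −5.79, adjusted p = 0.000819). Every lung library was above every other library for all of these. Angiotensin-converting enzyme, Ace, had 3578, 4151 and 3564 CPM in lung, 201, 103 and 383 in liver and 353 and 440.3 in heart (lung minus liver log2 4.05, adjusted p = 0.000253), and the lung minus liver gap was smaller than in controls, where liver had 21.8, 19.3 and 29.6 CPM (knockout-labelled minus control log2 −3.71, adjusted p = 0.000915). Car4, the carbonic anhydrase of gas-exchange capillaries, had 431, 650.5 and 577 CPM in lung, 0.483, 0.638 and 3.51 in liver and 34.2 and 62.7 in heart (heart minus lung log2 −3.52, adjusted p = 0.0106), while heart controls had 225 and 358 CPM. Scn7a, a sodium channel gene, had 2724, 6208 and 3236 CPM in lung, 1.48, 0.986 and 1.79 in liver and 15.6 and 20.9 in heart (heart minus lung log2 −7.80, adjusted p = 9.43e-05). Its heart minus lung difference had widened (knockout-labelled minus control log2 −1.90, adjusted p = 0.0214).

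The kept lung genes with the largest differences also included Ankrd63, at 35.6, 45.5 and 62.6 CPM in lung against 3 counts over the liver libraries and 3 over the heart libraries (ratio 1520, 95% counting interval 520 to 7380, and 1260, interval 429 to 6090). Esr2, oestrogen receptor beta, had 5.8, 1.78 and 4 CPM in lung and 0 elsewhere, at least 130-fold above liver and 107-fold above heart. The noradrenaline transporter Slc6a2 had 856, 301 and 146 CPM in lung, 0.0322, 0.087 and 0.0638 in liver and 0.465 and 0.537 in heart (heart minus lung log2 −9.77, SE 0.948, adjusted p = 0.000332). Dpysl5, a cytoskeletal gene of neurons, had 132, 133 and 78.7 CPM in lung, 0.0645, 0.319 and 0.16 in liver and 0.0734 and 0.102 in heart. Adgrl3, an adhesion receptor, had 235, 105 and 352 CPM in lung, 0.193, 0.029 and 0.0957 in liver and 0.269 and 0.793 in heart. Lung was above every other library for each of these genes. Beside them, 7 of 13 lung epithelial markers were above both organs in lung (6.19% of all genes were), with a sum of 364 to 596 CPM in the knockout-labelled lung libraries and 2146 to 3388 CPM in lung controls. Their part was not tested.

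Not kept in lung were 79 organ genes, 40 with a lung mean at least 2-fold below controls and 45 with a level in the other organs at least 2-fold above theirs, as means with no test. Vegfa, a ligand that lung capillary cells make, had 787, 889.6 and 604 CPM in lung and 46.3, 13.7 and 95.9 in liver. Heart, with 387 and 233 CPM, was not shown to differ from lung (heart minus lung log2 −1.30, SE 0.652, adjusted p = 0.193), where heart controls had 74.5 and 72.7 (knockout-labelled minus control log2 2.71, adjusted p = 0.0411). Itga3, an integrin subunit that binds laminin, had 562, 886 and 948 CPM in lung, 323 and 232 in heart and 107, 69.7 and 234 in liver (heart minus lung log2 −1.54, SE 0.489, adjusted p = 0.0545). Controls had 35.4 and 39.9 CPM in heart and 18.4, 16.1 and 17.2 in liver, so the lung margin had shrunk against both (knockout-labelled minus control log2 2.14, adjusted p = 0.0351, and for lung minus liver adjusted p = 0.0155). Atp2a3, a calcium pump, had 1599, 2175 and 1469.6 CPM in lung and 808 and 1018 in heart (heart minus lung log2 −0.95, adjusted p = 0.35), Emp2 488, 648 and 404 and 223 and 228 (heart minus lung log2 −1.20, adjusted p = 0.187), and the phosphodiesterase gene Pde4b 349, 355 and 447 and 225 and 128 (heart minus lung log2 −1.13, adjusted p = 0.0574). Every lung library was above every other library for these 5 genes. DESeq2 called Itga3 (adjusted p = 0.00662) and Pde4b (0.0151), and so did 1 fit of all 16 libraries (0.0113 and 0.021). Without liver 3 the calls passed for Atp2a3 (adjusted p = 0.0221), Emp2 (0.00677), Itga3 (0.00527) and Pde4b (0.0297), and without liver 2 for Vegfa (0.0408), Itga3 (0.0267) and Pde4b (0.0284).

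Of 7 class II antigen presentation genes, 2 were above both other organs in the knockout-labelled lung libraries (6.19% of all genes were), H2-DMb1 and H2-Ab1, where all 7 were in controls. Cd74, the invariant chain, had 24.3, 33.5 and 18 CPM in lung, 27.3, 29.9 and 5.78 in liver and 21 and 23.1 in heart, so the organs overlapped (heart minus lung log2 −0.20, SE 0.562, adjusted p = 0.839). Lung controls had 1156, 308 and 443 CPM (knockout-labelled minus control log2 5.08, adjusted p = 0.0074). H2-Ab1, a class II beta chain, had 37, 43.3 and 36.5 CPM in lung against 8.61, 8.7 and 2.39 and 7.71 and 8.96 (heart minus lung log2 −2.23, adjusted p = 0.0116), and lung controls had 489, 203 and 232. The peptide loader H2-DMb1 had 8.06, 7.03 and 6.29 CPM in lung, 1.35, 1.8 and 0.957 in liver and 0.979 and 1.13 in heart (heart minus lung log2 −2.77, adjusted p = 0.00135). The heart minus lung difference had changed for 6 of the 7 genes, all upwards, where 6.4% of all genes had changed and 3.83% upwards. Ciita, the class II transactivator, had 3.64, 2.88 and 2.82 CPM in lung and 54.9, 37.7 and 37.9 in its controls (knockout-labelled minus control log2 2.62, adjusted p = 0.0377). Leukocyte markers summed to 85.6 to 188 CPM in knockout-labelled lung and 453 to 544 CPM in its controls. Their part was not tested.

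In lung 266 genes (1.35% of all) were organ genes in the knockout-labelled libraries. Of these, 87 were not on the control list, 6 of them at least 4-fold above both organs in controls by estimate but under 10 CPM there, and 179 were shared with controls (51.4% of the control list and 67.3% of the other). Cyp1a1, a target of the aryl hydrocarbon receptor, had 32, 88.4 and 493 CPM in lung, 0.935, 1.25 and 0.83 in liver and 0.171 and 0.154 in heart (lung minus liver log2 7.68, SE 1.07, adjusted p = 0.000757). Its controls had 35.6, 41.1 and 34.7, 5.69, 1.26 and 5.44 and 10.1 and 22.7 CPM, so the margin had widened against both organs (knockout-labelled minus control log2 4.50, adjusted p = 0.0319, and for heart minus lung adjusted p = 0.00402), with lung 3 far above lung 1. Gna14, a G protein subunit, had 62.6, 41.4 and 23.6 CPM in lung against 1.03, 0.435 and 0.319 in liver and 0.269 and 0.691 in heart (lung minus liver log2 6.17, adjusted p = 9.39e-05). Controls had 59.6, 41.2 and 40.6 CPM in lung and 18.7, 17.9 and 16.9 in liver, and the lung minus liver difference was larger than theirs (knockout-labelled minus control log2 4.76, adjusted p = 0.000337). The lung minus heart difference of Gna14 was not shown to change (knockout-labelled minus control log2 0.36, adjusted p = 0.834). Flrt3, an adhesion protein, had 120.4, 106 and 12.1 CPM in lung, 0.967, 0.261 and 2.97 in liver and 1.76 and 0.793 in heart (heart minus lung log2 −5.96, adjusted p = 0.0112), with lung 3 below the other lung libraries. That call ended without heart 1 (adjusted p = 0.0759) or heart 2 (0.0823). Wnt2b, a Wnt ligand, had 47.8, 24.7 and 17.7 CPM in lung, 1.03, 0.986 and 0.638 in liver and 1.22 and 1.05 in heart (heart minus lung log2 −4.74, adjusted p = 0.000486). The caveolar gene Cavin4 had 12.3, 9.91 and 10.8 CPM and the melanin-concentrating hormone receptor gene Mchr1 38.5, 23 and 45.9 CPM in lung. Lung controls had 6.13, 6.79 and 6.89 and 0.848, 2.77 and 2.37 CPM of these, below the 10 CPM minimum, and their control log2 differences to the nearer organ were 3.41 and 6.39. For Flrt3, Wnt2b, Cavin4 and Mchr1 the change of the organ difference from controls did not pass against both organs. The larger of the 2 adjusted p was 0.301, 0.105, 0.975 and 0.766.

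Of 18 heart capillary marker genes, 10 were above both other organs in heart (controls 14), with a median log2 difference to the nearer organ of 2.22 (controls 3.86), and 17 passed the 3-tissue test. Over all genes 5.23% were above both in heart and 41.8% passed the 3-tissue test. Without heart 1 the count was 6, without heart 2 it was 4 and without liver 3 it was 10. Meox2, a homeobox factor of fatty acid transport (chromosome 12, 37108540 to 37179534, plus strand), had 113 and 229 CPM in heart, 2.96, 3.16 and 12 in lung and 0.161, 0 and 1.18 in liver (heart minus lung log2 4.81, SE 0.919, adjusted p = 0.00714). Both heart libraries were above all others, and heart controls had 187 and 216 CPM. Its partner Tcf15 had 16.7 and 27 CPM in heart, 2.01, 1.38 and 2.73 in lung and 0.0645, 0.058 and 0.989 in liver (heart minus lung log2 3.40, adjusted p = 0.0198), but heart controls had 261 and 326, and the margin over lung was smaller (knockout-labelled minus control log2 −3.15, adjusted p = 0.0196). The nucleoside transporter Slc28a2 had 36.6 and 43.3 CPM in heart, 0.825, 0.338 and 1.12 in lung and 0.902, 0.522 and 0.67 in liver (heart minus lung log2 5.69, adjusted p = 0.000132), and 760.05 and 623 in heart controls (knockout-labelled minus control log2 −3.76, adjusted p = 0.0019). C1qtnf9, a secreted protein, had 15.7 and 34.1 CPM in heart and 355 and 422 in its controls (knockout-labelled minus control log2 −3.12, adjusted p = 0.00939), and the glycerol channel Aqp7 15.1 and 38.3 and 218 and 315 CPM (knockout-labelled minus control log2 −4.64, adjusted p = 0.0259). All 4 were above both organs, by a smaller margin over lung than in controls. Kcna5, a potassium channel (chromosome 6, 126532551 to 126535412, minus strand), had 98.1 and 197 CPM in heart, 0.801, 0.0921 and 1.09 in lung and 0, 0.029 and 0.894 in liver (heart minus lung log2 7.76, SE 1.05, adjusted p = 0.0015), beside 226 and 244 in heart controls. The adhesion gene Cdh13 had 825 and 928 CPM in heart against 199, 237 and 146 in liver and 32.3, 65.6 and 61.6 in lung (heart minus liver log2 2.18, adjusted p = 0.00113), while controls had 251 and 325 in heart and 303, 279 and 287 in liver (knockout-labelled minus control log2 2.18, adjusted p = 0.00394).

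Of 18 fatty acid handling genes, 13 passed the 3-tissue test (41.8% of all genes), and 5 were above both other organs in heart (controls 11; 5.23% of all genes), 1 in liver (controls 2; 8.42%) and 1 in lung (controls 1; 6.19%), the latter 2 near the share of all genes. Fabp4, a fatty acid-binding protein and heart capillary marker (chromosome 3, 10204088 to 10208576, minus strand), had 1847 and 2623 CPM in heart, 1842, 1409.7 and 1826 in liver and 14.8, 28 and 165 in lung. Both heart libraries were just above the highest liver library, and the difference did not pass (heart minus liver log2 0.40, SE 0.815, adjusted p = 0.754), where controls had 4258 and 6031 and 306, 331 and 332, and the difference had changed (knockout-labelled minus control log2 −3.59, adjusted p = 0.0353). Fabp5 had 398, 315 and 493 CPM in liver against 171 and 222 in heart and 6.07, 9.88 and 12.1 in lung (heart minus liver log2 −1.03, SE 0.303, adjusted p = 0.0335), so liver was the highest organ, while liver controls had 72.8, 80.1 and 80.6 and heart controls 214 and 236 (knockout-labelled minus control log2 −2.56, adjusted p = 0.000669). The fatty acid transporter Cd36 had 4226, 4136 and 3331 CPM in lung, 1568 and 3544 in heart and 659, 699 and 1147 in liver (heart minus lung log2 −0.62, adjusted p = 0.3), and heart controls had 4487 and 5822. Lipoprotein lipase, Lpl, had 735, 356 and 725 CPM in lung, 137 and 329 in heart and 26.8, 35.8 and 210.5 in liver (heart minus lung log2 −1.39, adjusted p = 0.291). Its anchor Gpihbp1 had 93.1 and 199 CPM in heart and did not differ past the threshold in any pair. Lipe, hormone-sensitive lipase, had 74.2, 42.8 and 82.5 CPM in lung against 23.9 and 19.8 in heart (heart minus lung log2 −1.62, adjusted p = 0.00627), and heart controls had 188 and 245 (knockout-labelled minus control log2 −3.05, adjusted p = 0.000348). Pparg, a lipid-sensing nuclear receptor, was highest in heart at 42.3 and 55.9 CPM (heart minus lung log2 3.91, adjusted p = 0.00302), and so was Angptl4, a lipase inhibitor, at 251 and 141 CPM (heart minus lung log2 3.85, adjusted p = 0.00934).

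**Figure D4:**
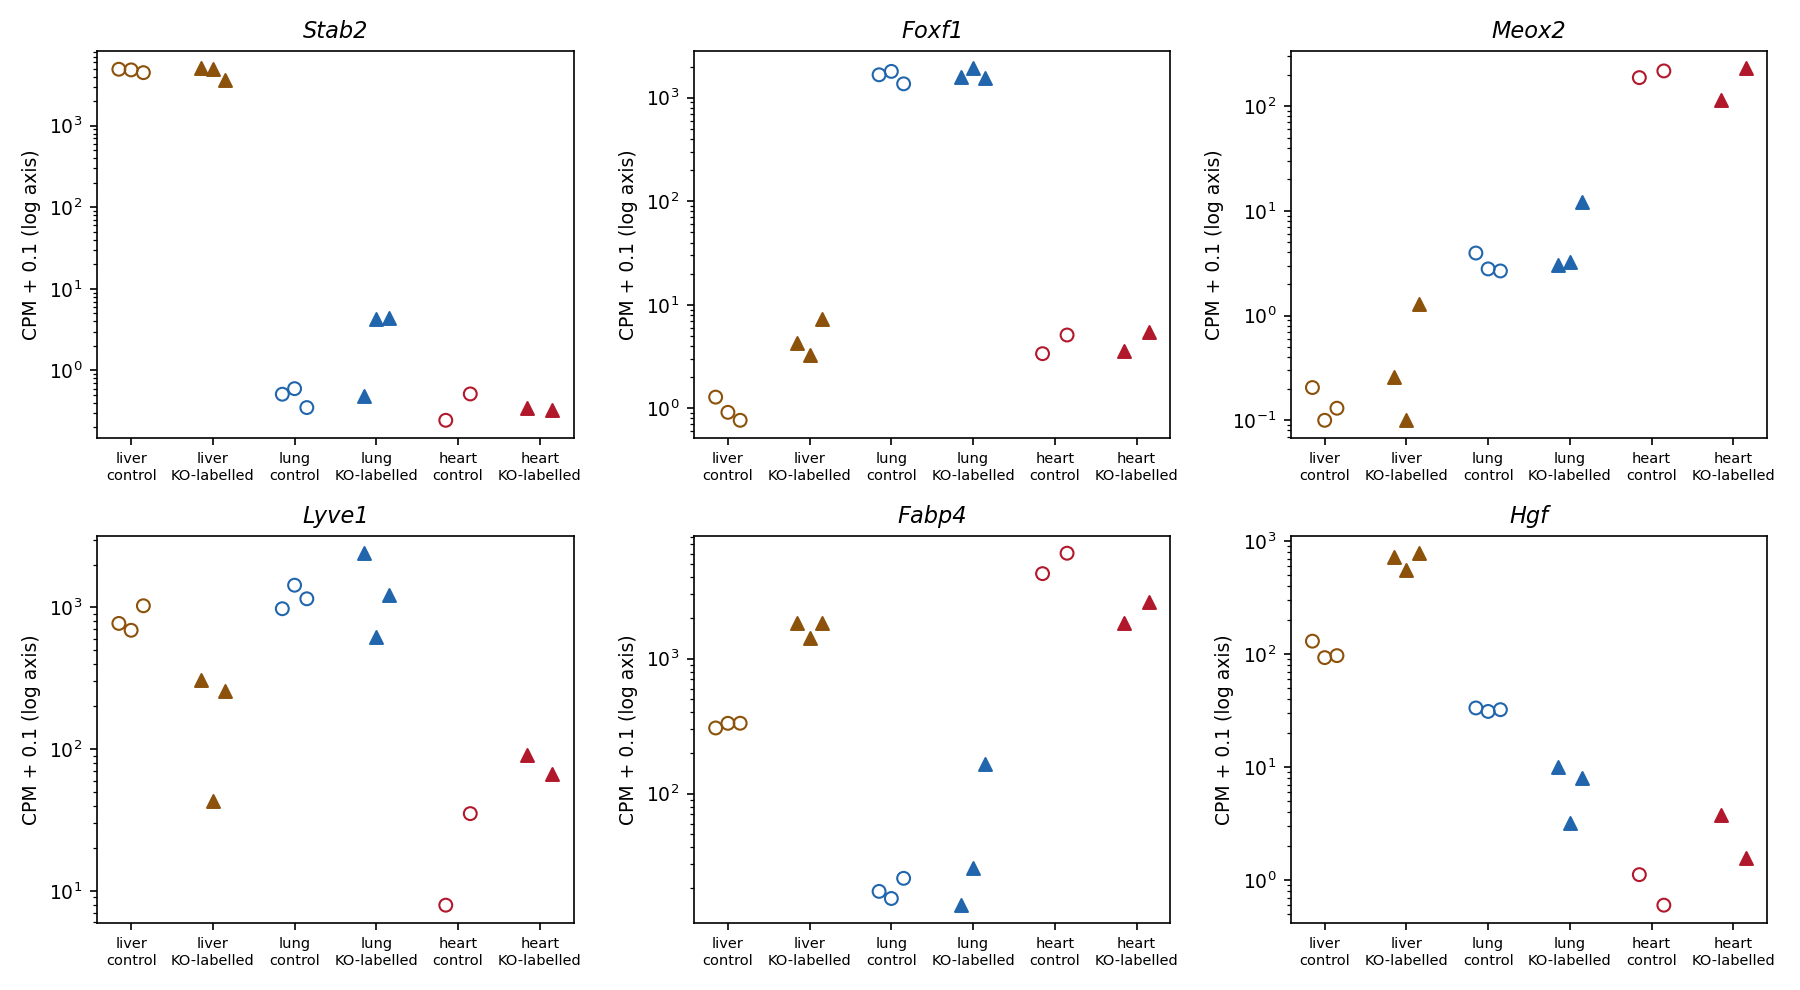
CPM plus 0.1 of 6 genes in all 16 libraries (y axis logarithmic; x axis: 6 groups; open circles: control libraries; triangles: knockout-labelled libraries). Stab2, Foxf1 and Meox2 stay with their organ, Fabp4 is nearer between heart and liver than in controls, Lyve1 is lower in knockout-labelled liver than in lung, and Hgf is highest in the knockout-labelled liver libraries.

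Among the kept heart genes with the largest differences, Olfr78, an olfactory receptor, had 11.4 and 11.3 CPM in heart against 2 counts over the lung libraries (ratio 610, 95% counting interval 168 to 5050). Tbx20, a cardiac T-box factor, had 14.1 and 30.02 CPM in heart, 0.0967, 0 and 0.383 in liver and 0, 0 and 0.647 in lung (heart minus lung log2 6.67, SE 1.36, adjusted p = 0.00958), a call that DESeq2 did not make (adjusted p = 0.0573) and that ended without heart 2 (0.0525). Pgf, placental growth factor, had 372 and 211 CPM in heart, 1.89, 2.15 and 5.65 in lung and 0.355, 0.116 and 9.54 in liver (heart minus liver log2 6.45, SE 1.36, adjusted p = 0.00825), and 18.3 and 14.9 in heart controls. That call ended without heart 1 (0.0576) or lung 1 (0.0505). The sialyltransferase gene St8sia6 had 59.5 and 44.6 CPM and the zinc finger gene Zfp985 8.02 and 6.55 CPM in heart, each above every other library. Of 6 endocardial genes all passed the 3-tissue test, with 1 (Tbx20) above both other organs in heart and 3 in controls. Over all genes 41.8% passed that test and 5.23% were above both in heart. Npr3, an endocardial receptor, had 1525, 452 and 249.6 CPM in lung and 102 and 78.9 in heart (heart minus lung log2 −3.05, adjusted p = 0.13). Cardiomyocyte markers summed to 163 to 188 CPM in these heart libraries and 232 to 366 CPM in heart controls, and fibroblast and mural markers to 2188 to 2543 and 1788 to 1906 CPM, and their part was not tested.

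Heart had 90 organ genes that were not kept, 44 with a heart mean at least 2-fold below controls and 32 with a level in the other organs at least 2-fold above theirs, as means with no test. Beside Fabp4, the most abundant in controls included 3 heat shock genes. Hspa1b had 2427 and 2487 CPM in heart, 1598, 789 and 2309.6 in lung and 553, 312 and 2394 in liver (heart minus lung log2 0.63, adjusted p = 0.605), with liver 3 beside the heart libraries (adjusted p = 0.306 without it). Hspa1a, a near-identical copy whose reads can be split between both, had 892 and 947 CPM in heart (heart minus lung log2 0.62, adjusted p = 0.614), and Hspb1 709.9 and 909.6 CPM in heart and 413, 339 and 737 in lung (heart minus lung log2 0.69, adjusted p = 0.654). Immediate early and dissociation genes, which hold the heat shock pair, summed to 22300 to 22910 CPM in heart, 10190 to 21130 in lung and 2993 to 23330 in liver, with liver 3 at the top. Slc6a6, the taurine transporter, had 811 and 1062 CPM in heart, 455, 456 and 786 in lung and 377, 322 and 548 in liver (heart minus lung log2 0.71, SE 0.319, adjusted p = 0.147). Its controls had 1516 and 1644 in heart, 331, 214 and 347 in lung and 150.2, 134 and 116 in liver, and the margin had shrunk against both (adjusted p = 0.0275 and 0.00329). Apold1, an endothelial early response gene, had 509.6 and 343 CPM in heart and 311, 128 and 332 in liver (heart minus liver log2 0.73, adjusted p = 0.4).

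In heart 258 genes (1.31% of all) were organ genes in the knockout-labelled libraries. Of these, 140 were not on the control list, 17 of them at least 4-fold above both organs in controls by estimate but under 10 CPM there, with 118 shared (45.2% of the control list and 45.7% of the other). Tnc, tenascin C, had 319.7 and 208 CPM in heart, 1.29, 0.859 and 2.5 in lung and 0.0322, 0 and 4.56 in liver (heart minus lung log2 7.40, SE 1.38, adjusted p = 0.00656), with 7.57 and 5.1 in heart controls. F2rl1, the protease-activated receptor 2, had 69.7 and 55.5 CPM in heart against 0.645, 0.754 and 1.44 and 0.146, 1.38 and 0.588 (heart minus liver log2 6.05, adjusted p = 0.000379), and Gper1, a membrane oestrogen receptor, 58.8 and 65.5 CPM against 0, 0.145 and 1.47 and 0.437, 1.69 and 0.794 (heart minus liver log2 6.85, adjusted p = 0.0021). Heart controls had 7.08 and 4.88 and 3.25 and 3.05 CPM of these receptors. Sh2d5, an adaptor protein, had 148 and 42.4 CPM in heart and 0.929 and 0.637 in controls (heart minus liver log2 5.86, SE 0.66, adjusted p = 0.000397), and its margin over liver and lung was larger than in controls (adjusted p = 0.0199 and 0.00238). The growth cone gene Gap43 had 47.9 and 35.8 CPM and the pentraxin Ptx3 25.3 and 19 CPM in heart, against 0.609 and 0.637 and 1.86 and 1.94 in heart controls. For Tnc, F2rl1, Gper1, Gap43 and Ptx3 the change of the organ difference from controls did not pass against both organs. The larger of the 2 adjusted p was 0.399, 0.319, 0.953, 0.287 and 0.468. In every case both heart libraries were above the 6 others.

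Of 37 organ-biased transcription factor genes tested, 32 passed the 3-tissue test (41.8% of all genes), 10 above both other organs in liver (controls 9; 8.42% of all genes), 4 in lung (controls 6; 6.19%) and 8 in heart (controls 10; 5.23%). In liver, Maf had 1118, 1225 and 702 CPM against 3.13, 5.28 and 5.26 in lung and 10.4 and 13.9 in heart (heart minus liver log2 −6.38, SE 0.404, adjusted p = 4.77e-05), with 1940.2, 1844 and 1779 in liver controls. Gata4 had 437, 347 and 474 CPM in liver, 0.194, 0.491 and 2.03 in lung and 26.9 and 21.8 in heart (heart minus liver log2 −4.10, SE 0.689, adjusted p = 0.00279), against 783, 644 and 597 in liver controls. The orphan receptors Nr2f2 and Nr2f1 had 363, 440.0 and 380.2 and 41.6, 52.2 and 67.1 CPM in liver and 57.4, 29.9 and 35.7 and 4.88, 5.4 and 2.62 in lung (lung minus liver log2 −3.25 and −3.63). Meis2 (181, 180.1 and 202 CPM), Tfec (44.8, 35.7 and 21 CPM), Zfpm2 (18.1, 18 and 15.2 CPM) and Zfpm1 (164, 193 and 180.3 CPM) were also above both organs in liver, as were Lyl1 (113, 128 and 139.8 CPM) and Sox18 (294, 215 and 201 CPM, lung minus liver log2 −0.71, adjusted p = 0.0479). Nr5a2 and Prox1 passed against lung and not against heart (82, 50.9 and 62.8 and 8.38, 7.98 and 25.7 CPM). Tbx2, a lung-list gene, had 559, 704 and 324 CPM in liver and 239.7, 568 and 205 in lung, not shown to differ (lung minus liver log2 −0.64, adjusted p = 0.264), and 27.3 and 32.3 in heart.

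In lung the factors above both organs were Foxf1, Epas1, Meis1 and Hey1. The hypoxia factor Epas1 had 11332, 8101 and 8639 CPM in lung, 1194, 1211 and 1078 in liver and 1474 and 2208 in heart (heart minus lung log2 −2.36, SE 0.316, adjusted p = 0.00144), Meis1 143, 141 and 139.9 against 30.7, 44.4 and 48.2 and 15 and 14.1 (lung minus liver log2 1.79, adjusted p = 0.0001), and the Notch target Hey1 132, 107 and 79.5 against 1.58, 0.783 and 3.99 and 11.2 and 29.6 (heart minus lung log2 −2.39, adjusted p = 0.0268). Tbx3 had 808, 1262 and 1181 CPM in lung and 144 and 174 in heart and missed the threshold between them (heart minus lung log2 −2.78, adjusted p = 0.0715), as did Gata2, at 739, 845 and 769 and 362 and 410.4 CPM (heart minus lung log2 −1.03, adjusted p = 0.0519). Both were above liver. The flow-responsive Klf4 and Klf2 were lower in liver (103, 49.4 and 171 and 818, 680.02 and 990.2 CPM) than in lung (1209, 1239.9 and 922 and 1481, 2235 and 1865; lung minus liver adjusted p = 0.000385 and 0.00554), and so was Sox17 (lung minus liver log2 0.65, adjusted p = 0.016). In heart, Meox2, Tcf15, Pparg and Tbx20 were joined by Irx3 (75.1 and 73.9 CPM, heart minus lung log2 4.01, adjusted p = 0.0221), Foxc1 (90.4 and 86.6 CPM, heart minus lung log2 2.39, adjusted p = 0.0126), Foxc2 (44.1 and 29.2 CPM, heart minus liver log2 2.76, adjusted p = 0.0261) and Hand2 (17.4 and 11.9 CPM, heart minus liver log2 5.08, adjusted p = 0.0143). Hand2 is also on the fibroblast and mural list, 7 of whose 16 genes were above both organs in heart (5.23% of all genes were), and their part in it was not tested. In the liver libraries Irx3 had 0.258, 0.116 and 3.96 CPM and Foxc2 2.96, 1.36 and 11.9 CPM, highest in liver 3. Meox1 and Gata6 were above liver in heart (heart minus liver log2 6.50, adjusted p = 0.00116; heart minus liver log2 3.11, adjusted p = 0.00959) without passing against lung. Foxp2, Tal1, Nkx2-3 and Lhx6 were among those that did not pass the 3-tissue test.

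**Figure D5:**
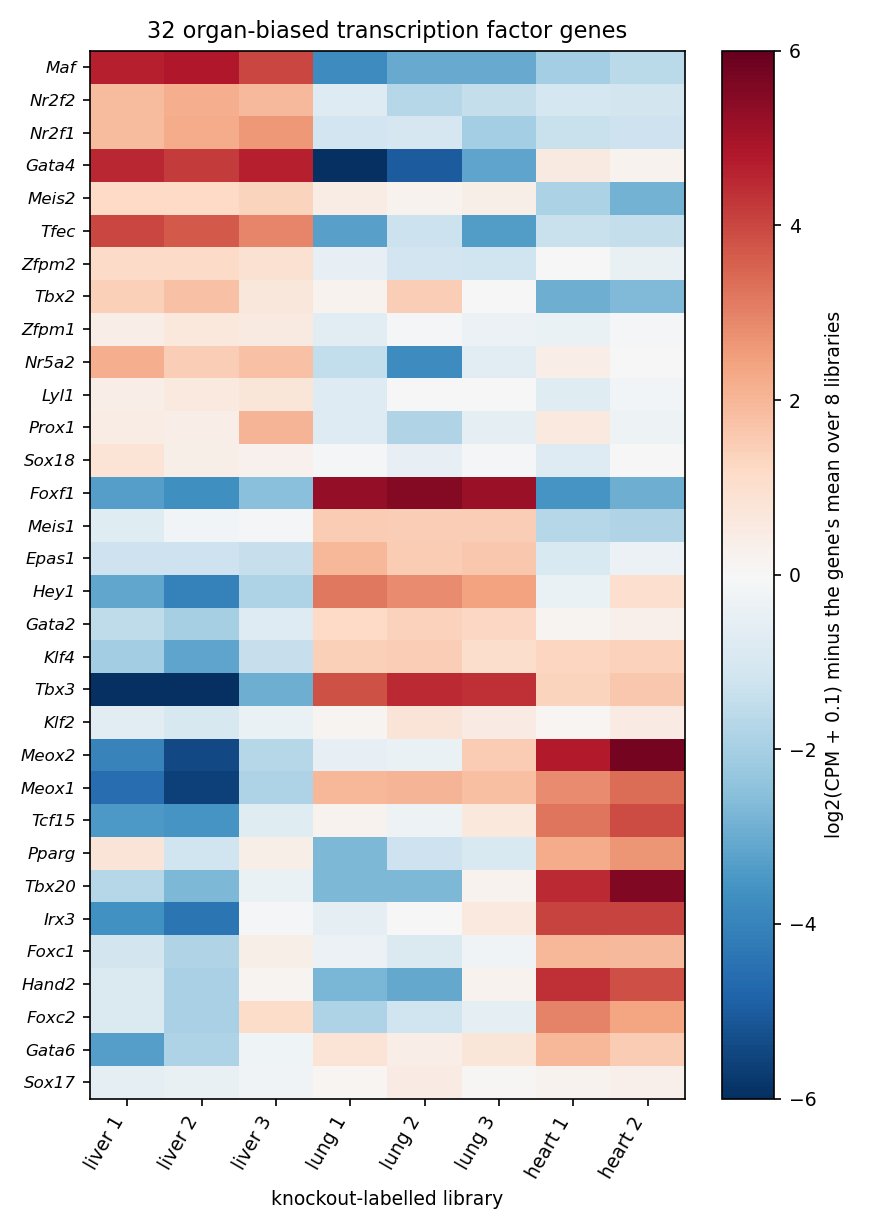
Log2(CPM + 0.1) of the 32 organ-biased transcription factor genes that passed the 3-tissue test, minus each gene's mean over the 8 knockout-labelled libraries (rows: genes, grouped by the organ with the highest mean; columns: libraries; red: above the mean, blue: below). Maf and Gata4 are high in the 3 liver columns, Foxf1 in the 3 lung columns and Meox2 in the 2 heart columns, and the liver 3 column is less blue than liver 1 and 2 for heart genes such as Irx3.

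Hox genes record position along the body axis. Of 39 listed, 18 had enough counts to be tested and 14 passed the 3-tissue test, where 41.8% of all genes did. Liver was above both other organs for 6 (controls 7), where 8.42% of all genes were. Heart was below both for 9 (controls 7), and the share of all genes below both was not counted. Hoxb4 had 69.6, 92.7 and 87.3 CPM in liver, 45, 33 and 49.9 in lung and 12.2 and 9.88 in heart (lung minus liver log2 −0.95, SE 0.193, adjusted p = 0.00566; heart minus lung log2 −1.96, adjusted p = 0.000759), an order liver, lung, heart with no overlap. Hoxb5 had 15.1, 16.7 and 20.7 CPM in liver, 18.5, 18.4 and 25.3 in lung and 0.636 and 0.461 in heart (heart minus lung log2 −5.24, SE 0.318, adjusted p = 5.07e-05), and Hoxb7 5.54, 4.84 and 6.83, 0.34, 0.614 and 0.441 and 0 and 0.0256 CPM (lung minus liver log2 −3.61, SE 0.412, adjusted p = 0.000257). Hoxa5 had 178, 113 and 96.9 CPM in lung, 83.9, 40.05 and 121 in liver and 6.24 and 5.73 in heart (heart minus lung log2 −4.44, adjusted p = 0.00069). Heart was the lowest organ for each. The Hox clusters hold antisense genes, and counts of overlapping genes cannot be told apart without strand.

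Angiocrine factors are signals that endothelium sends to its organ. Of 23 tested, 20 passed the 3-tissue test, where 41.8% of all genes did, 5 above both organs in liver (controls 7; 8.42% of all genes), 3 in lung (controls 3; 6.19%) and 5 in heart (controls 4; 5.23%). The liver 5 were Bmp2, Rspo3, Hgf, Wnt2 and Wnt9b (27.9, 18.9 and 32.7 CPM, heart minus liver log2 −3.17, adjusted p = 0.0401). Angpt2, an antagonist of Tek, had 349, 328 and 934 CPM in lung, 67.4, 50.9 and 58.1 in liver and 36.6 and 39.8 in heart (lung minus liver log2 3.21, SE 0.407, adjusted p = 0.000447), where controls had 43.7, 44.4 and 39.9, 45.6, 36.5 and 56.8 and 42.4 and 29.4 CPM, and both lung differences had grown (knockout-labelled minus control log2 3.31, adjusted p = 0.00093; heart minus lung adjusted p = 0.0019). The Notch ligand Dll1 had 333, 131 and 285 CPM in lung against 11.1, 8.41 and 21.2 and 36 and 28.4 (heart minus lung log2 −2.97, adjusted p = 0.00448), and Bmp6 399, 425 and 412 against 99.7, 81.2 and 131 and 165 and 228 (heart minus lung log2 −1.08, adjusted p = 0.0118). In heart, Pdgfb, which recruits pericytes, had 747 and 810.4 CPM against 192, 383 and 355 in lung and 59.2, 38.8 and 72.8 in liver (heart minus lung log2 1.32, adjusted p = 0.0207). Inhba (63.6 and 12.7 CPM, heart minus liver log2 6.63, adjusted p = 0.000712), Il6 (123 and 44.9 CPM, heart minus lung log2 4.39, adjusted p = 0.0096), Tgfb2 (87.2 and 68.9 CPM, heart minus lung log2 1.66, adjusted p = 0.0126) and Edn1, endothelin (122 and 107 CPM, heart minus lung log2 0.83, adjusted p = 0.0394), were also above both. The 2 heart libraries differed by more than 2-fold for Inhba and Il6. Controls had 31.8 and 49 CPM of Edn1 in heart and 159, 127 and 214 in lung, and its heart minus lung difference had changed (knockout-labelled minus control log2 2.89, adjusted p = 0.00736).

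Genes shared by endothelium of all organs were read beside these lists. Of 31 pan-endothelial genes, 19 passed the 3-tissue test (41.8% of all genes). Above both other organs were 3, 4 and 1 in liver, lung and heart (controls 5, 10 and 6), where 8.42%, 6.19% and 5.23% of all genes were. The control fit called more of all genes in every pair, so the lower counts are not read as a change of these genes. Kdr, the main VEGF receptor, had 5420.2, 5021 and 3517 CPM in liver against 1282, 1445 and 1236 in lung and 944 and 1294 in heart (lung minus liver log2 −1.80, SE 0.246, adjusted p = 0.000683). Thrombomodulin, Thbd, had 2024, 2029 and 2271 CPM in lung against 168, 105 and 219.8 and 482 and 576 (heart minus lung log2 −2.01, adjusted p = 0.00303), and Nos3, which makes nitric oxide, 287 and 227 CPM in heart against 64.8, 40.4 and 70.6 and 49.2, 40.04 and 55.5 (heart minus liver log2 2.14, adjusted p = 0.0005). Tek, Tie1, Esam, Egfl7 and Ecscr did not pass the 3-tissue test. Of 14 arterial genes, 12 passed, and 41.8% of all genes is the share to set beside this and the venous and lymphatic counts. Of the arterial genes, 5 were below both other organs in liver (controls 12), and the share of all genes below both was not counted. Gja5, an arterial connexin, had 14.6 and 22.8 CPM in heart, 7.47, 10.03 and 9.09 in lung and 0.709, 0.609 and 0.574 in liver (heart minus liver log2 4.89, SE 0.289, adjusted p = 3.9e-05). Liver 3 was above liver 1 and 2 for arterial genes such as Sema3g, at 2.32, 1.89 and 176 CPM and Jag2 at 1.84, 1.77 and 37.4 CPM in the 3 libraries, and neither lung nor heart passed against liver for Sema3g (lung minus liver log2 3.17, adjusted p = 0.134). Of 11 venous genes, 9 passed, with von Willebrand factor, Vwf, at 2929, 1507 and 1418 CPM in lung, 179, 177 and 562 in liver and 282 and 297 in heart (heart minus lung log2 −2.77, adjusted p = 0.0127). Of 5 lymphatic genes tested, 3 passed, with Nts at 114 and 63.9 CPM in heart, 0.258, 0.29 and 3.86 in liver and 0.388, 0.43 and 1.03 in lung (heart minus lung log2 7.17, adjusted p = 0.00247).

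Promoter letters were read for the organ genes, since Erg and Fli1 bind GGAA sites. Windows of 250 bases before each start, from RefSeq on GRCm38.p6, matched 13029 of the 19646 genes (16560 windows). The ETS strings AGGAAG and CGGAAG differ in their first base, so they cannot match at the same place, and both strands were searched. AGGAAG stood in 29.2% of all windows, in 32.6% of those of kept liver genes and 44.2% of those not kept, in 27.7% and 29.8% for lung and in 28.9% and 32.4% for heart. CGGAAG stood in 21.1% of all windows and in 6.02% to 9.09% of the organ sets. The GATA string AGATAA was in 6.8% of all windows and 7.18% of kept liver windows, and the forkhead string GTAAACA in 2.55% of all and 2.07% of kept lung windows. These shares are descriptions, with no test. The windows below, free of annotated exons, show 1 kept and 1 not kept gene per organ, with matches to these strings in capitals, read 5′ to 3′ on the gene's strand. They are Clec1b (chr6:129397047-129397296, plus strand, liver, kept), Ntn4 (chr10:93640799-93641048, plus strand, liver, not kept), Fendrr (chr8:121083111-121083360, minus strand, lung, kept), Atp2a3 (chr11:72960919-72961168, plus strand, lung, not kept), Kcna5 (chr6:126535556-126535805, minus strand, heart, kept) and Hspb1 (chr5:135887669-135887918, plus strand, heart, not kept).
Clec1b: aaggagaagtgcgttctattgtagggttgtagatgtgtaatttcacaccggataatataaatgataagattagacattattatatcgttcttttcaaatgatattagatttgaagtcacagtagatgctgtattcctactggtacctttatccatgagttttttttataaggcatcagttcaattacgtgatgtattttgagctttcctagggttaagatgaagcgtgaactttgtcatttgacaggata
Ntn4: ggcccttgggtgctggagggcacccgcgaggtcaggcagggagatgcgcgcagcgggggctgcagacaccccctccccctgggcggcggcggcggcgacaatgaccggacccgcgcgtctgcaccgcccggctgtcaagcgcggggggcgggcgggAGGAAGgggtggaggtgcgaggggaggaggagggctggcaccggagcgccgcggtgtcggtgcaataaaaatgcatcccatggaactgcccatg
Fendrr: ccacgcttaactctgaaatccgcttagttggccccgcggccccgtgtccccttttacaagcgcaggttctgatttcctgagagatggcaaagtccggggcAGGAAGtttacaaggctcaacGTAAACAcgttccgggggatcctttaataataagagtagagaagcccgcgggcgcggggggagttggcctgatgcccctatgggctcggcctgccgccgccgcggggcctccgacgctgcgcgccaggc
Atp2a3: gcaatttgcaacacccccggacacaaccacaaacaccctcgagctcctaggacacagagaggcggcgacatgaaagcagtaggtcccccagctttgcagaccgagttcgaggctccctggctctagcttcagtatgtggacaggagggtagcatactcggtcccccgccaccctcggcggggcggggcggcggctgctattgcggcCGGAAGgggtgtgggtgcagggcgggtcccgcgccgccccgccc
Kcna5: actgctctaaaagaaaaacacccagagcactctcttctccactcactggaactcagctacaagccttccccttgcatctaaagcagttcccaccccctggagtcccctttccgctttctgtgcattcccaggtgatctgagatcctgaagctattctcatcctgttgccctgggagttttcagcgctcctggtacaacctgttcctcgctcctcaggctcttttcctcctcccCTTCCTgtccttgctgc
Hspb1: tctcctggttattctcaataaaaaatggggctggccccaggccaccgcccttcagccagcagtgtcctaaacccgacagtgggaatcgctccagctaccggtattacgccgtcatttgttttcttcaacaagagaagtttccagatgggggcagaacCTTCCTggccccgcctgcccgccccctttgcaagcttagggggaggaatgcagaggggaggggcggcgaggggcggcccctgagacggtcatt
AGGAAG began 94 bases before the start in Ntn4 and 150 before in Fendrr, where GTAAACA began at 129, and its opposite-strand form CTTCCT at 17 before in Kcna5 and 93 before in Hspb1. CGGAAG began 44 bases before the start in Atp2a3. Clec1b, the platelet-receptor lectin that stayed with liver at 456, 448 and 429.6 CPM against 46.5, 58 and 68.4 in lung and 22.8 and 30.6 in heart (lung minus liver log2 −2.93, adjusted p = 1.34e-05), had none of the searched strings in its window. That window does hold TTCC, the opposite-strand form of the shorter GGAA.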

How the data were processed

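Sorted endothelial RNA was sequenced as poly(A)-selected libraries with an unstranded or a stranded kit, and the labels do not say which was used for a sample. The authors deposited 1 table of raw gene counts (52636 genes, 99.6% with a symbol, 147 sharing one). FastQC 0.11.5, STAR 2.7.6a and GRCm38 are named in the submitters' processing notes, and the sources used here do not name the counting program, its strand setting or its annotation. Counts per knockout-labelled library ran from 30226340 to 41132076, TMM factors over all libraries from 0.9157 to 1.073, and the mitochondrial share from 0.957% to 2.85%.

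Here the counts were tested with edgeR 4.0.16 (R 4.3.3, limma 3.58.1) by the quasi-likelihood test with Benjamini-Hochberg adjustment at 0.05. The 8 knockout-labelled libraries were fitted with 3 organ means (5 residual degrees of freedom), the controls alike, and the change between both in 1 fit of all libraries (10 residual degrees of freedom). Genes passed filterByExpr (minimum count 10, total 15) over the 6 groups, which left 19646. Whole-gene CPM are not per length, so levels are compared between organs and not between genes. Bounds for genes at 0 use 3 counts over the group, and 95% intervals of ratios cover counting error only. On simulated counts with 200 of 19646 genes changed, 64%, 54% and 72% of 4-fold changes and 2%, 11% and 9% of 2-fold changes were recovered for lung against liver, heart against liver and heart against lung, and 2.94%, 5.8% and 7.95% of calls were false. Far more genes were called in the data, where the adjusted threshold is less strict, so recovery there can differ.

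The comparison and the gene lists were chosen with earlier results of these data known. Named were, per organ and leaving out predicted, sex-linked and other-cell genes, the 6 kept organ genes with the largest difference to the nearer organ, the 6 not kept with the highest control mean, and the 6 organ genes of the knockout-labelled libraries absent from the control list with the largest difference. Some genes that meet these rules are not reported here. Each list added the 4 members, or fewer, that led its 3-organ test, and all transcription factors that passed it. Further list members, among them Kit, Lyve1, Angpt2, Il6, Sema3g, Jag2 and Npr3, were named after their values were seen. Alternatives were RLE size factors, DESeq2 1.42.0, other filters, other organ-gene thresholds, 1 fit of all libraries, a replicate block and leaving out each library. Gene positions are from GENCODE M21 and promoter windows from RefSeq (GRCm38.p6).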

Additional observations from a re-analysis of the deposited data

Results flagged for a closer look

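The organ difference itself changed between control and knockout-labelled libraries for 1219 genes for lung and liver, 1635 for heart and liver and 1257 for heart and lung, by the test of that change in the 16-library fit. Among the named genes, 7 changed against both other organs, each given as the smaller of its 2 changes in the log2 difference of its own organ to the others. In liver these were Oit3 at −2.92, Fxyd6 at −1.86 and Fat3 at 8.50. In lung they were Itga3 at −2.14 and Cyp1a1 at 4.50. In heart they were Slc6a6 at −1.68 and Sh2d5 at 4.31. Negative values mean a smaller margin than in controls. No group had more than 3 libraries, so single libraries were not tested for standing apart.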

How the results depend on the processing

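The genes that changed sign, Inhbb, Fxyd6 and Cd74, passed in none of the fits run. The log2 difference of Inhbb to the nearer organ was 0.07 and became −1.37 without liver 1 (range −1.37 to 0.61 with 1 library left out), −0.39 without lung 2, −0.46 without heart 2 and −0.70 with the replicate block. That of Cd74 was 0.20 and became −0.16 without liver 3 and −0.04 without lung 2 (range −0.16 to 0.39), and that of Fxyd6 was 0.15 and became −0.16 with the block. RLE size factors and a filter on the knockout-labelled libraries alone kept every count within 1.5 times and every kept share within its 95% exact binomial interval. The kept share was sensitive to its definition and test. For lung it was 82.5% with DESeq2, 82.8% with no filter except 1 count and 83.0% with all 16 libraries in 1 fit, and for heart 74.3% without the filter and 78.9% in the 16-library fit. With at least 2-fold in controls the shares were 68.6%, 66.9% and 50.4% for liver, lung and heart, with at least 8-fold 87.4%, 84.8% and 73.2%, with at least 1 CPM 69.4%, 63.3% and 53.6%, and for liver 87.3% with at least 50 CPM. DESeq2 called 2072, 2673 and 2154 changed organ differences for lung and liver, heart and liver, and heart and lung. Leaving out 1 library gave 2933 (without heart 1) to 5772 (without liver 3) genes for heart against liver and 1766 to 4973 for heart against lung, by the same libraries. Kept shares ran from 68.9% to 82.4% for liver, 57.8% to 85.3% for lung and 37.9% to 78.5% for heart, and the heart list count from 4 to 11. The changed differences ran from 804 (without lung control 3) to 1269, from 736 (without heart control 1) to 1779 and from 476 (without heart 1) to 1401. Leaving out 1 heart library leaves 1, assumed to vary like the other organs.

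With the replicate number as a block the pair counts were 6422, 5680 and 4347, of which 5788, 4953 and 3678 were also called without it, and the kept share of heart was 78.5% (3 residual degrees of freedom). Deviations of same-numbered libraries correlated at 0.059 to 0.249 in 7 pairs, 6 of them over 0.1, and on autosomal genes alone at 0.041 to 0.194, 5 of them over 0.1. Library 2 is the male of each organ among the knockout-labelled libraries, and the deviations of 2 heart libraries from their mean mirror each other by construction. Over all genes 8 of 8 libraries correlated best with their own number, a hint from the data, since no label says that a number marks an animal. The heart control numbered 2 here carries number 3 in its column name. It is female, as are liver and lung controls 3. The block also brought Selenop (adjusted p = 0.0453), Itga3 (0.0459), Pde4b (0.0242), Hspa1b (0.0488), Slc6a6 (0.0128) and Apold1 (0.0435) past the threshold. At this depth and number of libraries, 2% to 11% of simulated 2-fold changes were recovered with 200 of 19646 genes changed. Far more genes were called in the data, so recovery there can differ.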
